A study of Sus scrofa with 8 samples.

Results

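The genes ICAM1, VCAM1, ITGA4, ITGAL and ITGB2 were followed in retinal nuclei of pigs that had received an adeno-associated virus (AAV) vector or its vehicle into the vitreous. They are 5 of the 35683 genes counted, and were chosen by name because they encode adhesion molecules through which leukocytes leave the blood. Female Yucatan minipigs, 3 to 5 months old, had been injected in both eyes with AAV2.7m8/CAG-GFP at 5e11 vg per eye, or with vehicle. Every animal, vehicle-injected ones included, had also received Vitrase, a hyaluronidase, in both eyes beforehand and methylprednisolone every week. CAG is a ubiquitous promoter and GFP the green fluorescent protein, so the vector group models delivery of a foreign reporter under steroid cover. Single-nucleus RNA sequencing (snRNAseq) covered 8 retinas of 6 animals. At week 2 these were the left (OS) and right (OD) eyes of AAV-injected animal 7221 and of vehicle-injected animal 7222. At week 4 only left eyes were sequenced, from animals 7248 and 7249 of the AAV group and animals 7250 and 7251 of the vehicle group, which had been killed on either of 2 days. Each of the 4 groups carries a batch label of its own, so that batch and group cannot be told apart. The question was which retinal cells held transcripts of the ligands and of the integrins that bind them, and whether the levels differed after AAV.

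Leukocytes roll along, stop on and cross the wall of small vessels, and integrins do the stopping. The integrin LFA-1, a pair of the chains made from ITGAL and ITGB2, binds ICAM1, and VLA-4, a pair of the ITGA4 and ITGB1 chains, binds VCAM1. ICAM1 and VCAM1 are immunoglobulin-family surface proteins that inflamed endothelium displays and that glia and myeloid cells can also make, and both integrins have been targets of blocking antibodies in inflammatory disease.

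The counts name the genes by identifier as ICAM1 (ENSSSCG00000013655), VCAM1 (ENSSSCG00000006862), ITGA4 (ENSSSCG00000016009), ITGAL (ENSSSCG00000007797) and ITGB2 (ENSSSCG00000025133). In the RefSeq annotation of Sscrofa11.1, ICAM1 spans chr2:69097136-69107722 on the plus strand and VCAM1 chr4:117496914-117511211 on the minus strand. ITGA4 spans chr15:86942054-87028428 on the plus strand, ITGAL chr3:17817785-17858057 on the minus strand and ITGB2 chr13:207514281-207544108 on the minus strand. The 250 bases upstream of the annotated starts of both ligand genes are shown because ICAM1 was past the threshold in more classes than any other member and VCAM1 had the largest fold change with endothelial nuclei unfiltered. Capitals mark matches to letters typical of NF-kB sites (GGNNNTTCC) or of interferon response elements (GAAA, any 2 bases, GAAA), searched on both strands. The ICAM1 run is chr2:69096886-69097135 read on the plus strand, and the VCAM1 run is chr4:117511212-117511461 read on the minus strand, both 5′ to 3′.
ICAM1: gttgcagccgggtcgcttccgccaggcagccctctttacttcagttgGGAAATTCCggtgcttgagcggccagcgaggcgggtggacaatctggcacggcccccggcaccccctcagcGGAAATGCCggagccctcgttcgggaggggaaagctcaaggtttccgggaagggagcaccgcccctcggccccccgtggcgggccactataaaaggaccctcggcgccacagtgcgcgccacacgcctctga
VCAM1: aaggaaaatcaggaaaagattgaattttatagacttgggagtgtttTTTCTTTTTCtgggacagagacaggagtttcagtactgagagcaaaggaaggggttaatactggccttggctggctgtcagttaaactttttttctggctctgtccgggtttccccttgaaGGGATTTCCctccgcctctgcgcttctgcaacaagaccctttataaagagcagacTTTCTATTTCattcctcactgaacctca
Counting back from the annotated start, ICAM1 held the NF-kB-like letters at -203 to -195 and, on the opposite strand, at -132 to -124. VCAM1 held the NF-kB-like letters at -83 to -75 and the interferon-response letters on the opposite strand at -204 to -195 and at -28 to -19. No match to either was found in the windows of the chain genes ITGA4, ITGAL and ITGB2. Of 20664 promoter windows of this length, 20.59% held the NF-kB-like and 3.136% the interferon-response letters. These are matches of letters only.

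The 8 libraries held 388491 barcodes with 500 or more UMIs each and 121544835 to 173614051 UMIs per retina, and 350537 nuclei remained after a filter on the mitochondrial share. Each nucleus was put into a class by fixed marker genes, and the class names below stand for these marker-gated nuclei. At week 4 the myeloid class held 1287 and 879 nuclei after AAV and 47 and 51 after vehicle. The T class held 912 and 702 nuclei after AAV against 1 in each vehicle retina, and the B class 190 and 183 against none. Müller nuclei numbered 1657 and 687 after AAV against 5292 and 5773, and their own marker list was at 2689 and 2683 CPM against 4129 and 4219 CPM. Endothelial nuclei were few in every retina, 6 to 53 after the filter, but carried markers left out of the gate, with medians over retinas of 234 CPM for CDH5 and 354 CPM for PECAM1. Myeloid nuclei carried CD86, CTSS and, at a median of 10.5 CPM, CD68, but LYZ was at a median of 1.86 CPM in them and 1.37 CPM in neurons. T nuclei of the AAV retinas carried SKAP1, TRAT1, CD8A and CD4, and B nuclei EAF2, IRF4 and CD37, whereas FCRLA was near 0 in the B class with 3 UMIs. Of the astrocyte class, 30.4% to 72.3% of nuclei per retina also carried markers of another class, and Müller markers summed to 1518 to 2683 CPM in it. Among glial genes left out of the gate, SLC1A3 had medians of 1024 CPM in Müller, 994 CPM in astrocyte and 394 CPM in myeloid nuclei. AQP4 was higher in Müller nuclei (40.2 against 9.01 CPM in astrocyte nuclei), whereas SOX9 (7.38 against 33.5 CPM) and VIM (81.8 against 265 CPM), which Müller glia also express, were lower there, so that the names Müller and astrocyte stand for the gate. Of 368982 barcode sequences, 4.63% occurred in more than 1 retina. Of the classes compared at week 4, Müller, astrocyte, myeloid and neuronal nuclei had at least the 20 nuclei per retina that a test required.

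Kept nuclei held 1502 UMIs of ICAM1, 1515 of ITGB2, 3783 of VCAM1, 6177 of ITGAL and 63328 of ITGA4. Levels are given as CPM, counts per 1000000 UMIs of all genes in the same class and retina, and are compared between classes and groups, not between genes. Shares of nuclei with a UMI are given beside them.

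By CPM, ICAM1 was highest in myeloid, endothelial and B nuclei, which need not hold most of its UMIs. In myeloid nuclei it lay between 0 and 48.5 CPM in the 6 other retinas and at 92.5 (7248) and 54.5 CPM (7249) after AAV at week 4, and in B nuclei of the latter retinas at 68.5 and 20.7 CPM. Kept endothelial nuclei ranged from 0 to 156 CPM on 0 to 12 UMIs, so their place in the order is not settled. Astrocyte nuclei followed with 2.49 to 17.3 CPM and T nuclei of the AAV retinas with 13.3 and 8.50 CPM. Müller nuclei held 0.122 to 4.15 CPM and neurons, at the bottom, 0.0320 to 0.862 CPM. The ranges of neighbouring classes overlapped.

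VCAM1 was at 36.4 to 152 CPM in myeloid and 31.7 to 63.5 CPM in astrocyte nuclei, and these ranges overlapped. Müller nuclei lay between 1.34 and 17.3 CPM, and neurons between 0.241 and 1.70 CPM. Kept endothelial nuclei had 0 UMIs in 5 of 8 retinas and 33.9 and 117 CPM in the AAV retinas of week 4, so that their place in the order is not settled either. T nuclei of these retinas held 8.88 and 3.64 CPM, at the level of Müller nuclei.

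The integrin genes were led by leukocytes. ITGA4 stood at 658 and 864 CPM in T nuclei and at 345 and 698 CPM in B nuclei of the week 4 AAV retinas, against 45.2 to 70.7 CPM in neurons, 7.36 to 47.6 CPM in myeloid, 9.70 to 17.5 CPM in Müller and 6.64 to 16.2 CPM in astrocyte nuclei. Lymphocytes and neurons did not overlap, the myeloid range reached that of neurons, and the 3 lowest classes overlapped each other. Kept endothelial nuclei, at 0 to 76.9 CPM on 0 to 5 UMIs, could not be placed. ITGAL was highest in T nuclei at 180 and 191 CPM, followed by myeloid nuclei at 40.3 to 142 CPM and B nuclei at 95.5 and 74.6 CPM, which overlapped. ITGB2 was at 33.6 to 89.8 CPM in myeloid, 48.8 and 61.9 CPM in T and 33.2 and 45.6 CPM in B nuclei, with overlapping ranges. It was at 1.79 CPM or below in Müller nuclei and at 2.03 CPM or below in astrocyte nuclei. In kept endothelial nuclei ITGAL had 0 UMIs in all 8 retinas and ITGB2 had 2 UMIs, both in 7222 OD.

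**Figure D1:**
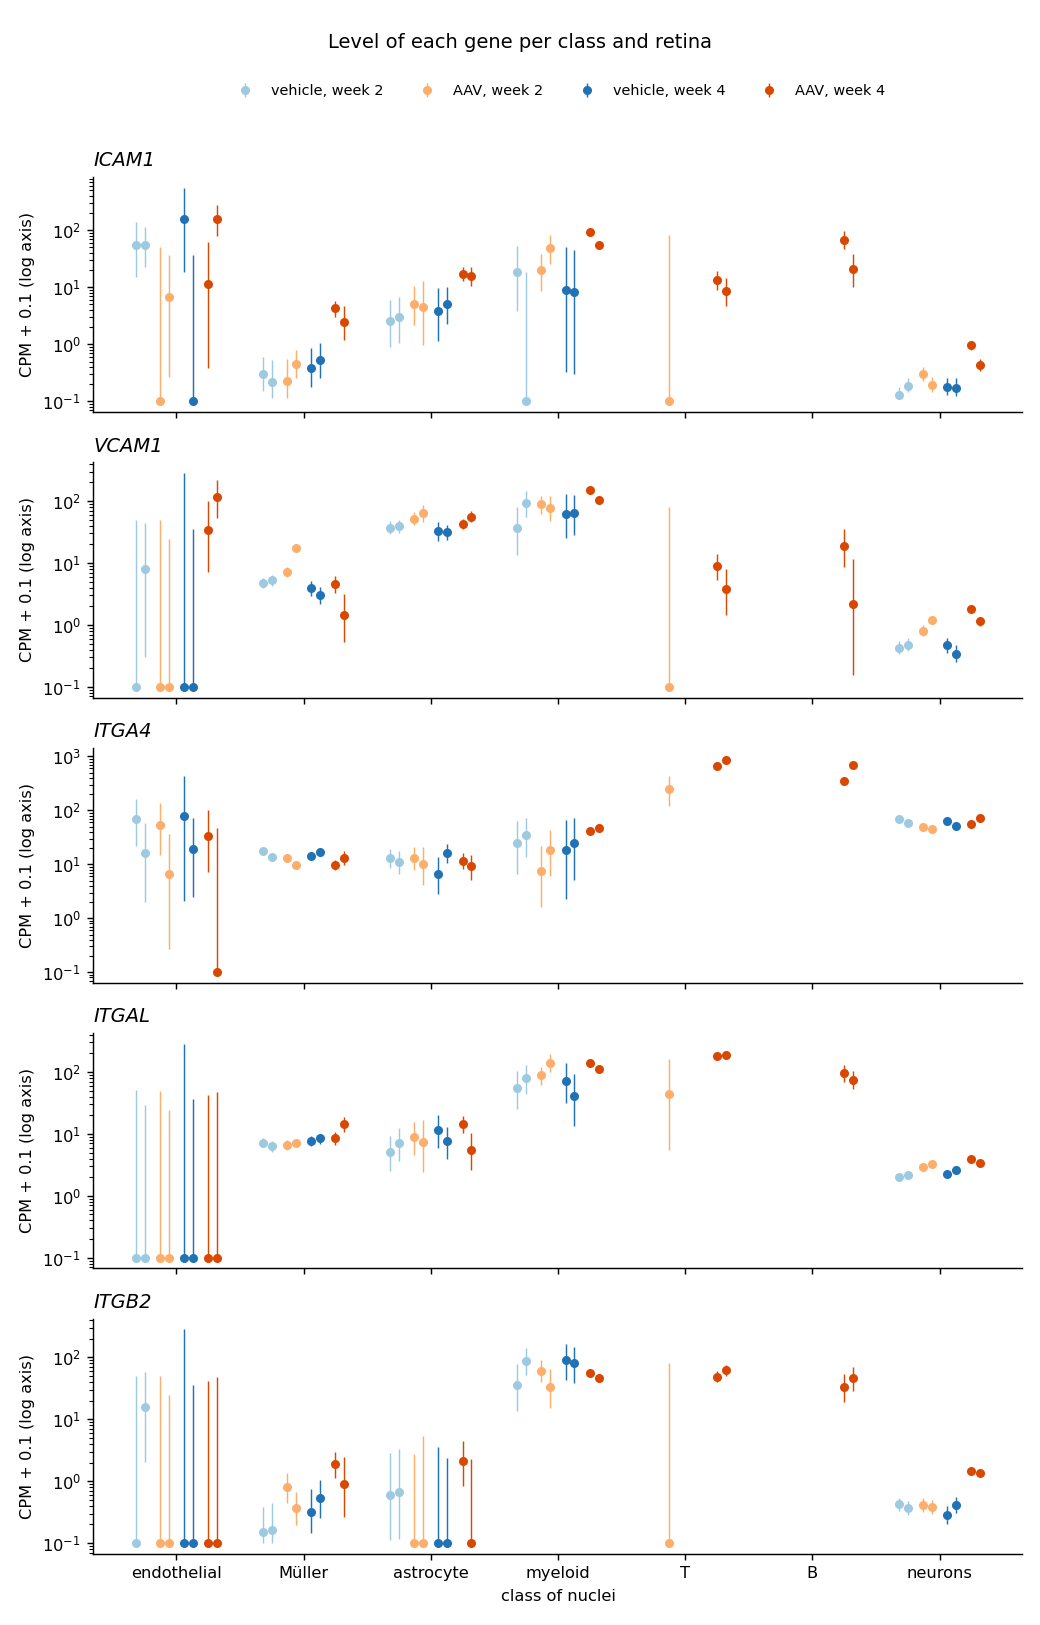
CPM plus 0.1 on a log axis for each gene (rows) by class of nuclei, 1 point per retina with at least 5 nuclei of the class, coloured by group, with exact 95% Poisson intervals that cover counting error only. Points at the floor of the axis stand for 0 UMIs. ICAM1 of the week 4 AAV retinas sits above all other retinas in Müller, astrocyte, myeloid and neuronal nuclei, and ITGA4 is highest in T and B nuclei.

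ITGA4 in neurons needs a remark on its neighbour. The gene CERKL lies on the opposite strand and ends 808 bases beyond ITGA4, and it was abundant in rods, at 843 to 1094 CPM, where ITGA4 lay between 60.6 and 93.3 CPM. In T nuclei of the AAV retinas, ITGA4 was higher than in rods, at 658 and 864 CPM, and CERKL lower than in rods, at 255 and 229 CPM. Whether reads of the one gene were counted for the other was not tested. Free RNA was not removed from the counts.

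Depth was equalised to compare shares of nuclei. When each nucleus of the week 4 AAV retinas was thinned to 1000 UMIs, leaving out shallower ones (424 T, 56 B, 51 myeloid and 266 rod nuclei), ITGA4 was detected in 46.1% of T nuclei (exact 95% interval 43.3 to 49.0%) and 38.8% of B nuclei (33.4 to 44.4%). It was detected in 3.59% of myeloid nuclei and 7.85% of rods. Unthinned, these shares were 59.4%, 56.3%, 11.2% and 17.1%, at median depths of 1574, 1956, 3312 and 2119 UMIs. The myeloid share was thus below that of rods. ITGAL was detected in 17.2% of T, 13.5% of myeloid and 9.78% of B nuclei after thinning against 0.389% of rods, and ITGB2 in 7.14%, 6.0% and 5.05% against 0.208%. Unthinned, ITGAL was in 30.8%, 31.9% and 15.8% against 0.933% of rods, and ITGB2 in 11.2%, 16.5% and 9.38% against 0.430%. Both LFA-1 chain genes thus stood well above rods in every leukocyte class. ICAM1 was detected in 6.90% of myeloid, 3.15% of B and 1.01% of T nuclei against 0.0595% of rods, and VCAM1 in 11.3% of myeloid and 0.420% of T nuclei against 0.169% of rods. Unthinned, ICAM1 was in 15.5%, 7.24% and 1.61% against 0.105%, and VCAM1 in 27.6% and 0.991% against 0.405%. Rods serve as a class not known to express these ligands.

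Detection of 2 genes in the same nucleus was counted, with neurons as the background, since neither free RNA nor doublets were removed. At week 4 after AAV, ITGAL and ITGB2 were both detected in 6.37% and 6.14% of myeloid nuclei and in 3.73% and 5.56% of T nuclei of 7248 and 7249, against 0.0193% and 0.00528% of neurons. The VLA-4 pair, ITGA4 with ITGB1, was detected together in 19.1% and 26.6% of T nuclei, 3.81% and 5.69% of myeloid nuclei and 2.81% and 3.93% of neurons. Both genes had many UMIs in neurons, with ITGB1 at 60.0 to 71.7 CPM over the retinas. Neurons therefore cannot serve as a background for this pair, and no myeloid share above or at background is read from it. ITGB1, which pairs with many alpha chains, was not limited to leukocytes, with 43.3 to 56.9 CPM in Müller and 154 to 289 CPM in endothelial nuclei. ICAM1 and VCAM1 occurred together in 8.24% and 4.10% of myeloid nuclei, against 0.0166% and 0.00528% of neurons. The shares to expect from each gene alone, were the 2 unrelated within a class, are not given. Joint detection is thus not read as the 2 genes keeping to the same nuclei of a class. At this depth a nucleus without a UMI of a chain cannot be called negative.

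The comparison of AAV with vehicle at week 4 asked whether each gene's level within a class differed between 2 AAV-injected and 2 vehicle-injected animals. ICAM1 rose in all 4 classes tested. In Müller, astrocyte and neuronal nuclei the vehicle retinas held only 4 to 8 UMIs of it each, and in myeloid nuclei 1 UMI each. In all 4 classes it therefore passed the filter on low counts through the AAV retinas, where it was high. VCAM1 and ITGB2 rose in neurons, ITGAL and ITGA4 passed the threshold in none of the 4 classes, and no member fell in these. In all, 6 of 18 gene and class pairs that passed the filter on low counts were past an adjusted p of 0.05 (edgeR's quasi-likelihood test, Benjamini-Hochberg adjustment over all genes of a class). ITGB2 in Müller and astrocyte nuclei did not pass that filter. For comparison, 24.0% of all genes tested were past the threshold in Müller, 15.2% in astrocyte, 7.24% in myeloid and 5.88% in neuronal nuclei. The members' own counts were 1 of 4 tested in Müller, 1 of 4 in astrocyte, 1 of 5 in myeloid and 3 of 5 in neuronal nuclei. With 2 animals in each arm, exact permutation could not give a p under 0.333, so that all calls rest on the spread edgeR shares across genes. Where groups are said not to overlap, this is a description only, since the share of all genes without overlap is not given.

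In myeloid nuclei, ICAM1 was at 92.5 and 54.5 CPM (396 and 191 UMIs) in 7248 and 7249 against 8.98 and 8.06 CPM (1 UMI each) in 7250 and 7251. Both AAV retinas were high, without overlap. The log2 fold change was 3.29 ± 0.78 (SE, n = 2 and 2 animals, adjusted p = 0.0260). As a ratio of summed UMIs this was 8.87-fold, with a counting interval of 2.45 to 73.4, since 2 UMIs carry the vehicle value. The adjusted p was 0.0786 without 7250 and 0.134 without 7251, 0.0537 without nuclei that carried markers of another class and 0.162 under a stricter gate, with the log2 fold change between 3.16 and 3.45. Thinned to 1000 UMIs, the share of myeloid nuclei with ICAM1 was 6.90% (5.86 to 8.07%) after AAV and 1.15% (0.0291 to 6.24%) after vehicle, the latter over 87 nuclei, and unthinned it was 15.5% and 2.04%.

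Most myeloid nuclei of the vehicle retinas carried the microglia gene P2RY12, 45 of 47 and 51 of 51, whereas 762 of 1287 and 647 of 879 did after AAV. P2RY12 encodes a purine receptor typical of resting microglia, and served as 1 of the gate's markers. Among nuclei with a P2RY12 UMI, ICAM1 was at 77.8 and 47.1 CPM after AAV and at 9.62 and 8.06 CPM after vehicle, the latter on 1 UMI per retina. Nuclei without one were at 117 and 77.8 CPM in the AAV retinas. They were shallower there, at medians of 2683 and 3441.5 UMIs against 3146 and 3834, and a missing UMI need not mean absence. P2RY12 had a UMI in 3.29% of all barcodes, and so was not limited to the myeloid class. This split was chosen after the data had been seen, and the part of the mix of myeloid nuclei in the ICAM1 result was not tested.

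In Müller nuclei, the radial glia that span the retina, ICAM1 was at 4.15 and 2.40 CPM (37 and 9 UMIs) after AAV and at 0.292 and 0.431 CPM (4 and 6 UMIs) after vehicle. The groups did not overlap, and the log2 fold change was 3.24 ± 0.49 (SE, n = 2 and 2 animals, adjusted p = 0.00364). Without 7248 the adjusted p was 0.0675, at a log2 fold change of 2.73. Without nuclei that carried markers of another class it was 3.57 (adjusted p = 0.00189). The leukocyte gene PTPRC was at 2.13 and 2.67 CPM in these Müller nuclei after AAV against 0.656 and 0.0717 CPM after vehicle. The myeloid list, with 9 to 12 of its 13 markers seen per retina, summed to 34.4 and 41.4 CPM against 33.4 and 27.1 CPM. Within that list, the complement gene C1QB was at 1.79 and 1.60 CPM against 0.0729 and 0.287 CPM. The macrophage gene CD163 was at 1.01 and 2.67 CPM against 0 and 0.144 CPM, and the other markers are not given singly. The part of these leukocyte transcripts in the ICAM1 result was not tested. Müller nuclei were also deeper after AAV at week 4, with medians of 5248 and 5379 UMIs against 2282.5 and 2064.

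In astrocyte nuclei ICAM1 was at 17.3 and 15.6 CPM (51 and 26 UMIs) after AAV and at 3.80 and 4.98 CPM (4 and 8 UMIs) after vehicle, again without overlap. The log2 fold change was 1.94 ± 0.39 (SE, n = 2 and 2 animals, adjusted p = 0.0105). Without nuclei carrying markers of another class, 52 against 1 UMIs were left, with a log2 fold change of 4.08 (adjusted p = 0.0188). Under DESeq2 the adjusted p was 0.0883. The myeloid list summed to 59.9 and 21.7 CPM in the astrocyte class after AAV against 17.1 and 12.4 CPM, and its part in the result was not tested.

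VCAM1 did not pass the threshold in Müller, astrocyte or myeloid nuclei. In Müller nuclei it was at 4.49 and 1.34 CPM (40 and 5 UMIs) after AAV and at 3.79 and 2.94 CPM (52 and 41 UMIs) after vehicle, and the groups overlapped. The log2 fold change of 0.00 ± 0.54 (SE, n = 2 and 2 animals, adjusted p = 0.999) depended on the gate. Asking for 1 more marker per nucleus gave 9.10 and 11.6 CPM against 5.19 and 5.18 CPM, with a log2 fold change of 0.98 (adjusted p = 0.0208) where 24.2% of all genes were past the threshold. In astrocyte nuclei VCAM1 was at 42.3 and 56.0 CPM after AAV and at 32.3 and 31.7 CPM after vehicle, without overlap, at a log2 fold change of 0.67 ± 0.24 (adjusted p = 0.0930). In myeloid nuclei it was at 152 and 104 CPM after AAV and at 62.9 and 64.5 CPM after vehicle, without overlap, at a log2 fold change of 1.19 ± 0.38 (adjusted p = 0.0965).

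**Figure D2:**
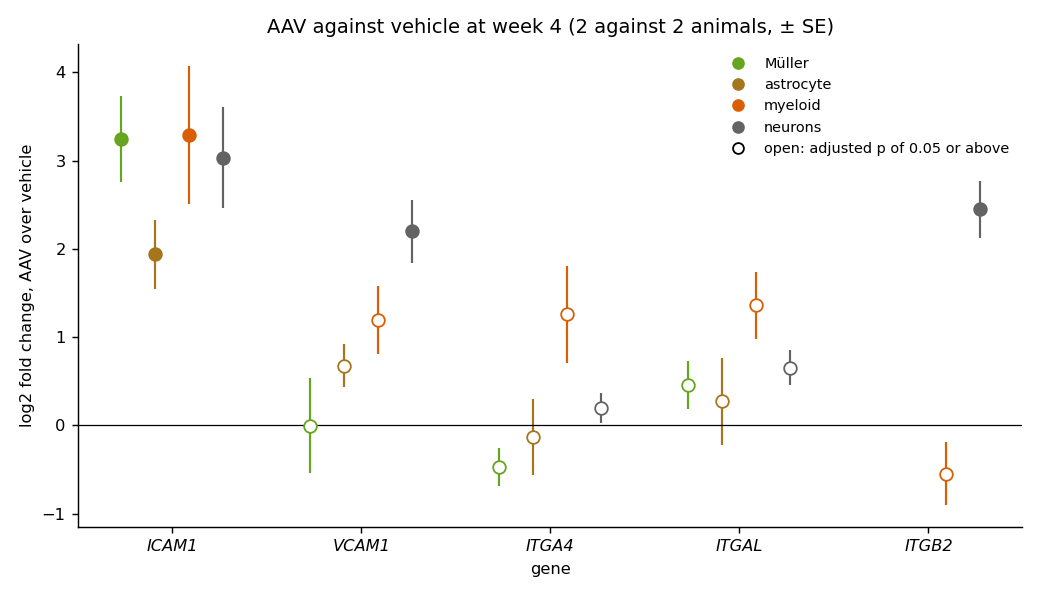
Log2 fold change of AAV over vehicle at week 4 for each gene, by class of nuclei (colours), with standard errors from edgeR (2 against 2 animals). Filled points have an adjusted p under 0.05, and all 4 ICAM1 points are filled. ITGB2 was not tested in Müller and astrocyte nuclei.

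Endothelial nuclei, on which ICAM1 and VCAM1 arrest passing leukocytes, had to be read apart. The filter on the mitochondrial share took away 38.8% of the endothelial barcodes, against 7.19% of neuronal, 7.92% of Müller, 11.8% of myeloid and 26.1% of T barcodes. Among kept endothelial nuclei at week 4, VCAM1 had 3 UMIs in 18 nuclei (7248) and 9 UMIs in 9 nuclei (7249) against 0 UMIs in 6 and 26 nuclei after vehicle. Among removed ones, VCAM1 had 53 UMIs in 18 nuclei and 107 UMIs in 15 nuclei after AAV, or 360 and 715 CPM, against 0 UMIs in 21 nuclei and 3 UMIs in 29 nuclei after vehicle. The UMIs came from 10 and 12 nuclei, the highest with 20 and 38 UMIs. ICAM1 had 22 and 20 UMIs in the removed nuclei after AAV, or 150 and 134 CPM, against 0 and 2 UMIs after vehicle. In kept nuclei ICAM1 had 1 and 12 UMIs after AAV, or 11.3 and 156 CPM, with 8 of the 12 in 1 nucleus. After vehicle these had 2 and 0 UMIs, or 154 and 0 CPM, so that the groups overlapped among kept nuclei. The removed nuclei of the AAV retinas had a median mitochondrial share of 2.16% and 2.00% and medians of 6788 and 8758 UMIs, those of the vehicle retinas 3.02% and 2.53% and 2288 and 3595 UMIs.

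With kept and removed endothelial barcodes summed, VCAM1 was at 238 and 512 CPM after AAV and at 0 and 14.4 CPM after vehicle at week 4. Both AAV retinas were high, and the ratio of summed UMIs (172 against 3) was 36.5, with a counting interval of 12.3 to 179. The log2 fold change was 5.17 ± 0.80 (SE, n = 2 and 2 animals, adjusted p = 0.0626), in a fit where 0.0401% of the 4992 genes tested were past the threshold. ICAM1 was at 97.6 and 141 CPM against 23.4 and 9.58 CPM (55 against 4 UMIs), with a log2 fold change of 3.04 ± 0.65 (adjusted p = 0.102). Neither gene passed the threshold. In kept endothelial nuclei none of the 13 myeloid gate markers was seen in 6 of 8 retinas, and 1 was seen in each of the other two. Of the myeloid genes left out of the gate, CTSS, a protease gene, had 28 UMIs in them, at a median of 27.1 CPM over retinas, CD86 and LYZ had 2 each and CD68 had 0. The removed endothelial nuclei, which held most of the VCAM1 UMIs, were not examined for myeloid markers.

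**Figure D3:**
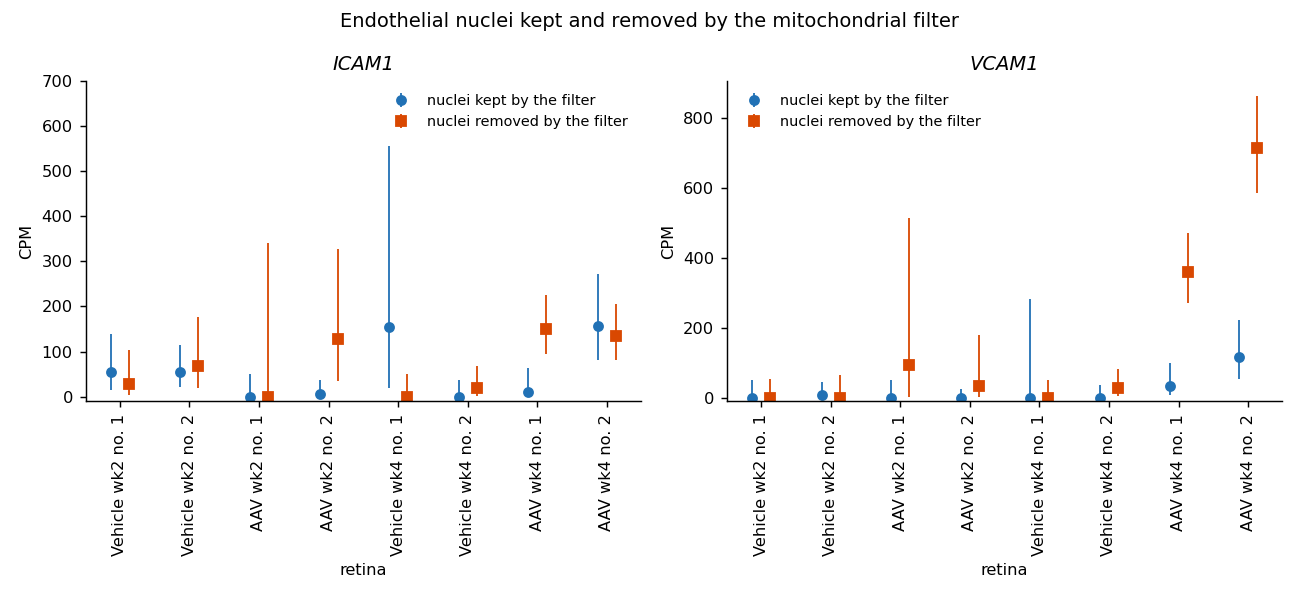
CPM of ICAM1 and VCAM1 in endothelial nuclei of each retina, kept (circles) or removed (squares) by the mitochondrial filter, the week 4 retinas numbered as 7248 and 7249 or 7250 and 7251, with exact 95% Poisson intervals for counting error only. VCAM1 of removed nuclei is at 360 and 715 CPM in the week 4 AAV retinas and at 92.2 CPM or below in all others.

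Among the integrin genes in myeloid nuclei, ITGAL was at 140 and 110 CPM (600 and 384 UMIs) after AAV and at 71.9 and 40.3 CPM (8 and 5 UMIs) after vehicle at week 4. The groups did not overlap, and the log2 fold change was 1.36 ± 0.38 (SE, n = 2 and 2 animals, adjusted p = 0.0565). ITGA4 was at 42.1 and 47.6 CPM against 18.0 and 24.2 CPM on 2 and 3 UMIs, at a log2 fold change of 1.26 ± 0.55 (adjusted p = 0.213). ITGB2 was at 55.1 and 47.1 CPM against 89.8 and 80.6 CPM, at a log2 fold change of -0.55 ± 0.35 (adjusted p = 0.415). Under the stricter gate the ITGB2 value was 0.079 (adjusted p = 0.963), with overlapping groups, so that its direction is not settled. None of the 3 chain genes passed the threshold in myeloid nuclei. In Müller nuclei ITGA4 was at 9.76 and 13.1 CPM against 14.3 and 17.1 CPM (log2 fold change -0.47 ± 0.22, adjusted p = 0.155), and ITGAL at 8.41 and 14.2 CPM against 7.65 and 8.33 CPM (0.46 ± 0.27, adjusted p = 0.264). In astrocyte nuclei ITGA4 and ITGAL had log2 fold changes of -0.13 ± 0.43 (adjusted p = 0.873) and 0.27 ± 0.50 (adjusted p = 0.766). T and B nuclei were not compared, since the week 4 vehicle retinas held 1 T nucleus each and no B nuclei.

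In neurons 3 members rose from very low levels. ICAM1 was at 0.862 and 0.340 CPM (100 and 44 UMIs) after AAV and at 0.0758 and 0.0723 CPM (7 and 6 UMIs) after vehicle, with a log2 fold change of 3.03 ± 0.57 (SE, n = 2 and 2 animals, adjusted p = 0.0356). VCAM1 was at 1.70 and 1.04 CPM against 0.368 and 0.241 CPM, with a log2 fold change of 2.20 ± 0.36 (adjusted p = 0.0248). ITGB2 was at 1.37 and 1.24 CPM against 0.184 and 0.313 CPM, with a log2 fold change of 2.45 ± 0.32 (adjusted p = 0.0126). In all 3 both AAV retinas lay above both vehicle retinas. ITGAL was at 3.90 and 3.28 CPM against 2.17 and 2.56 CPM (log2 fold change 0.66 ± 0.20, adjusted p = 0.106), and ITGA4 at 56.4 and 70.7 CPM against 64.1 and 51.2 CPM (0.19 ± 0.17, adjusted p = 0.517). Rods were 20421 of 36247 and 23510 of 37884 neuronal nuclei after AAV against 13529 of 31990 and 7649 of 27987 after vehicle. The mix of neurons thus differed between the groups. Leaving out 7250 or 7251 took the adjusted p of ICAM1 to 0.0999 and 0.192 and that of VCAM1 to 0.0516 and 0.150, and leaving out rods took them to 0.0953 and 0.0546.

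Leukocyte markers moved with these members in neurons. PTPRC was at 4.82 and 3.59 CPM in neurons after AAV at week 4 and at 0.133 to 0.402 CPM in the 6 other retinas. The list of 13 myeloid markers, all of them seen in neurons of every retina, summed to 32.6 and 25.8 CPM against 16.1 to 20.0 CPM in the others. The 11 T markers summed to 18.6 and 15.2 CPM against 9.55 to 10.97 CPM, and the 10 B markers to 11.5 and 12.3 CPM against 3.42 to 6.54 CPM, all 10 seen in the AAV retinas and 8 or 9 elsewhere. MS4A1, which defines B cells, was at 0.397 and 0.371 CPM against 0.0240 CPM or below. The part of these transcripts in the result was not tested. In rods alone, where 11.2% of all genes were past the threshold, 4 members rose. ICAM1 was at 1.08 and 0.429 CPM against 0.0420 and 0.0734 CPM, VCAM1 had a log2 fold change of 1.74 (adjusted p = 0.0390), ITGAL of 1.86 (adjusted p = 0.0138) and ITGB2 of 2.76 (adjusted p = 0.0270). For ICAM1 in rods the ratio of 76 against 2 UMIs was 13.3, with a counting interval of 3.56 to 112 (log2 fold change 3.77, adjusted p = 0.0393). With 1 UMI in each vehicle retina, ICAM1 passed the filter on low counts in rods through the AAV retinas. ITGB2 in rods had 3 and 7 UMIs after vehicle against 87 and 105 after AAV, and passed through the AAV retinas as well. PTPRC in rods was at 7.16 and 4.29 CPM against 0.220 to 0.768 CPM in the others. In amacrine cells, where 2.87% of all genes were past the threshold, ITGA4 fell, from 45.0 and 36.9 CPM after vehicle to 23.5 and 27.6 CPM after AAV, with a log2 fold change of -0.68 ± 0.14 (adjusted p = 0.0405). No member passed by edgeR in cones (0 of 4 tested, 1.62% of all genes past the threshold), bipolar cells (0 of 4, 2.86%), horizontal cells (0 of 2, 4.82%) or retinal ganglion cells (0 of 1, 3.48%), with 2, 3, 0 and 0 members at an unadjusted p under 0.05. Neuron subtypes were fitted apart after the data had been seen, by edgeR alone.

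Over all nuclei of a retina, ICAM1 stood at 886 and 415 UMIs after AAV at week 4 and at 21 and 30 UMIs after vehicle, or 5.81 and 2.68 against 0.176 and 0.269 CPM. VCAM1 stood at 1240 and 701 against 138 and 135 UMIs, ITGB2 at 642 and 528 against 36 and 52 UMIs and ITGAL at 1925 and 1446 against 384 and 387 UMIs. In such totals, more cells of a class and more RNA per cell cannot be told apart. Myeloid nuclei held 44.7% and 46.0% of the ICAM1 UMIs after AAV, and 4.76% and 3.33% after vehicle. For VCAM1 they held 52.6% and 51.9% after AAV against 5.07% and 5.93% after vehicle, where Müller (37.7% and 30.4%) and astrocyte nuclei (24.6% and 37.8%) led. T nuclei held 19.0% and 21.7% of ITGAL, 15.4% and 19.3% of ITGB2 and 13.6% and 11.07% of ITGA4 UMIs after AAV. Neurons held most of the ITGA4 UMIs in every retina, 86.7% to 92.0% outside and 66.8% and 71.2% within the week 4 AAV retinas.

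**Figure D4:**
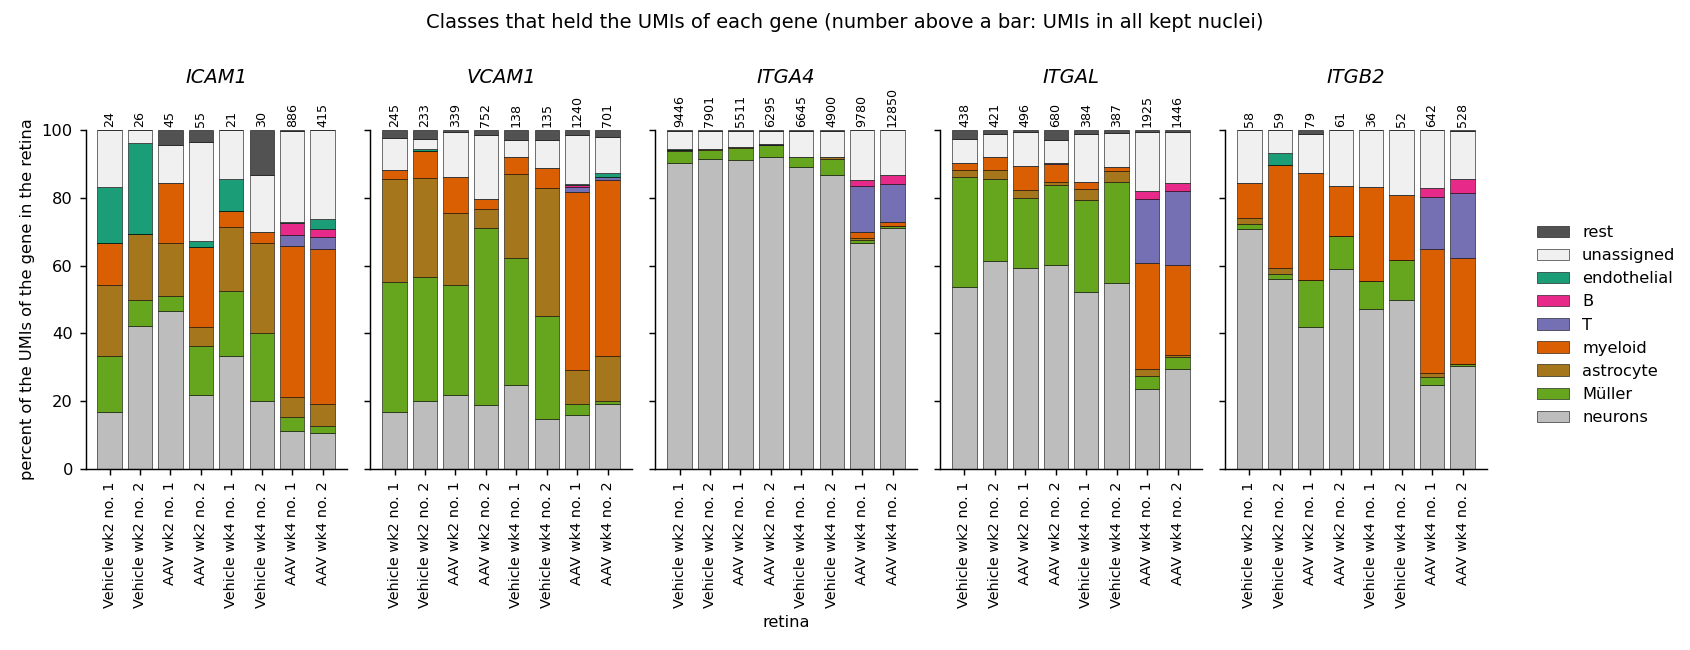
Percent of each gene's UMIs held by each class, 1 bar per retina, with the UMIs of the gene in all kept nuclei above the bar. Retinas are numbered in the order of the animals or eyes given above. In the week 4 AAV retinas, myeloid nuclei hold 44.7% and 46.0% of ICAM1 and 52.6% and 51.9% of VCAM1 UMIs, and T nuclei 19.0% and 21.7% of ITGAL UMIs.

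At week 2 both eyes of 1 animal per arm were compared, so no test between treatments was possible and the intervals cover counting error only. VCAM1 and ITGB2 stood higher in Müller nuclei of both AAV eyes than of both vehicle eyes. VCAM1, ICAM1 and ITGAL did so in astrocyte nuclei and in neurons, and ICAM1 and ITGAL in myeloid nuclei. The share of all genes whose eyes stood apart is not given, so that this order is a description only. In Müller nuclei VCAM1 was at 7.07 CPM (7221 OS, 110 UMIs) and 17.3 CPM (7221 OD, 392 UMIs) against 4.67 and 5.18 CPM (7222, 94 and 85 UMIs). The eyes of 7221 differed from each other. The ratio was 2.68 (2.25 to 3.19), 1.51 from left eyes only, 3.33 from right eyes only and 1.88 under the stricter gate. In astrocyte nuclei VCAM1 was at 52.1 and 63.5 CPM against 37.3 and 39.4 CPM, a ratio of 1.46 (1.13 to 1.88), and in neurons the ratio was 2.62 (2.04 to 3.40). In myeloid nuclei it was 1.24 (0.765 to 2.08), and the eyes overlapped.

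ICAM1 at week 2 rested on few UMIs. In myeloid nuclei it was at 19.6 and 48.5 CPM (8 and 13 UMIs) in 7221 against 18.2 and 0 CPM (3 and 0 UMIs) in 7222, a ratio of 3.82 (1.14 to 20.0). In Müller nuclei the ratio was 1.59 (0.524 to 5.32) and in astrocyte nuclei 1.80 (0.672 to 4.82), both intervals holding 1. In neurons both AAV eyes lay above both vehicle eyes, at 0.201 and 0.0937 CPM (21 and 12 UMIs) against 0.0320 and 0.0893 CPM (4 and 11 UMIs), a ratio of 2.35 (1.24 to 4.65). In kept endothelial nuclei the order was the other way, with 1 UMI in 7221 against 11 in 7222. ITGAL was 1.62-fold higher in myeloid nuclei (1.01 to 2.65) and 1.52-fold in neurons (1.35 to 1.71). ITGA4 stood lower in 7221, with ratios of 0.733 (0.716 to 0.752) in neurons and 0.699 (0.615 to 0.795) in Müller nuclei, and ITGB2 in myeloid nuclei had a ratio of 0.773 (0.445 to 1.36). Rods were 6882 of 26328 and 10771 of 30854 neuronal nuclei in 7221 against 15576 of 36064 and 12741 of 33351 in 7222. The part of this mix of neurons in the ITGA4 ratio was not tested, and the counting interval does not cover it. In Müller nuclei ITGB2 was at 0.707 and 0.264 CPM (11 and 6 UMIs) in 7221 against 0.0497 and 0.0610 CPM (1 UMI each) in 7222, a ratio of 8.11 (1.93 to 72.4). PTPRC in these Müller nuclei was at 0.450 and 0.264 CPM against 0.149 and 0.122 CPM, and the microglial complement gene C1QB at 0.514 and 0.220 CPM against 0.199 and 0.122 CPM. The part of leukocyte transcripts in the ITGB2 value was not tested. T nuclei numbered 1 and 14 in 7221 and 0 and 1 in 7222, and the 14 held 11 UMIs of ITGA4, or 243 CPM.

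With 3 AAV-injected and 3 vehicle-injected animals of both weeks in a fit with week as a term, ICAM1 in myeloid nuclei was the member past the threshold, with a log2 fold change of 2.59 ± 0.57 (SE, n = 3 and 3 animals, adjusted p = 0.0326, edgeR). The vehicle value rests on 3 and 0 UMIs at week 2 and 1 UMI per retina at week 4. ICAM1 thus passed the filter on low counts through the AAV retinas here too. Without 7248, 7250 or 7251 its adjusted p was 0.0817, 0.171 or 0.148. That is 1 of 5 members tested in myeloid nuclei, where 6.17% of all genes were past the threshold. No member passed in Müller (0 of 3 tested, 4.34% of all genes), astrocyte (0 of 3, 2.33%) or neuronal nuclei (0 of 5, 0.572%) by edgeR, with 1, 1 and 4 members at an unadjusted p under 0.05. DESeq2 called 4 pairs in all in this comparison. The share of all genes that DESeq2 called is not given, so that this count is not read as a result about the members. The lowest adjusted p among the others were those of ITGAL in myeloid nuclei (0.99 ± 0.29, adjusted p = 0.0823) and VCAM1 in neurons (1.88 ± 0.33, adjusted p = 0.0967).

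The effect of AAV was not shown to differ between the weeks for any member. In the edgeR test of the interaction, 0 of 5 members in Müller, 0 of 4 in astrocyte, 0 of 5 in myeloid and 0 of 5 in neuronal nuclei were past the threshold, against 4.27%, 1.08%, 1.02% and 0.0184% of all genes, and 1, 0, 1 and 2 had an unadjusted p under 0.05. DESeq2 was not run on the interaction. The lowest adjusted p was that of ITGB2 in neurons, with a log2 difference of 2.52 ± 0.54 (adjusted p = 0.133) between the week 4 and the week 2 effect. For VCAM1 in Müller nuclei, whose week 4 value depended on the gate as given above, the difference was -1.32 ± 0.59 (adjusted p = 0.245), and for ICAM1 in Müller nuclei it was 2.68 ± 1.11 (adjusted p = 0.211). A single animal per arm at week 2 limits this test.

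A list of 46 other genes of leukocyte adhesion, 40 of them in the counts, was followed at week 4 beside the members. In Müller nuclei 7 of 28 tested rose and 3 fell, in astrocyte nuclei 6 of 23 rose and 1 fell, in myeloid nuclei 6 of 30 rose and 1 fell, and in neurons 3 of 39 rose and 2 fell. The shares called, 35.7%, 30.4%, 23.3% and 12.8%, stand against 24.0%, 15.2%, 7.24% and 5.88% of all genes. The median log2 fold change of the list was 0.04 in Müller, 0.15 in astrocyte, 0.62 in myeloid and 0.07 in neuronal nuclei, where those of all genes tested were 0.00, 0.00, 0.13 and 0.00.

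Among ligands and junction proteins, F11R encodes the junctional protein JAM-A that LFA-1 can bind. It rose in astrocyte nuclei from 0 and 1.24 CPM to 18.6 and 19.9 CPM (4.63 ± 0.62, adjusted p = 0.00146). With 88 UMIs after AAV against 2 after vehicle, F11R passed the filter on low counts there through the AAV retinas. In Müller nuclei F11R rose by a log2 fold change of 1.34 ± 0.31 (adjusted p = 0.0187). ALCAM, an adhesion molecule of leukocytes and endothelium that binds CD6 on T cells, rose in Müller nuclei from 271 and 229 CPM to 779 and 834 CPM (1.72 ± 0.12, adjusted p = 0.000125) and in myeloid nuclei (2.69 ± 0.30, adjusted p = 0.000314). The alpha4 integrins also bind matrix proteins. SPP1, osteopontin, rose in myeloid nuclei from 8.98 and 24.2 CPM to 205 and 204 CPM (3.77 ± 0.43, adjusted p = 0.000338) and in astrocyte nuclei (2.23 ± 0.31, adjusted p = 0.00171). The myeloid vehicle values of SPP1 rest on 1 and 3 UMIs, and those of ALCAM on 16 UMIs in all. The mix of myeloid nuclei differed between the groups, as given below for CD163 and P2RY12. Its part in the ALCAM and SPP1 values of myeloid nuclei was not tested. SPP1 was highest in Müller nuclei, at 404 and 329 CPM after AAV against 182 and 154 CPM after vehicle. FN1, fibronectin, rose in astrocyte nuclei from 110 and 116 CPM to 418 and 350 CPM (1.84 ± 0.16, adjusted p = 0.000155).

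Among other integrin chains in myeloid nuclei, ITGA6 and ITGA5, laminin and fibronectin receptor chains, had 281 and 236 UMIs after AAV and none after vehicle, at least 2.83-fold and 2.38-fold higher against a floor of 3 UMIs over both vehicle retinas. Both thus passed the filter on low counts through the AAV retinas. ITGAM, the alpha chain of Mac-1 that also pairs with ITGB2, was chosen after its values were seen. It fell in myeloid nuclei, from 413 and 484 CPM to 143 and 116 CPM (-1.61 ± 0.21, adjusted p = 0.000864). The mix of myeloid nuclei moved with these chains. The macrophage gene CD163 was at 1928 and 1189 CPM in them after AAV and at 0 and 8.06 CPM after vehicle, and nuclei with a P2RY12 UMI were a smaller share, as given above. The part of the mix in the values of ITGA5, ITGA6 and ITGAM was not tested. In neurons ITGB7, the beta chain that can replace ITGB1 beside ITGA4, fell by 0.95 ± 0.13 on the log2 scale (adjusted p = 0.0131). Cones held 2399 of its 2549 and 2462 of its 2650 neuronal UMIs after vehicle. In cones ITGB7 was at 80.5 and 80.7 CPM after AAV against 116 and 130 CPM. Cones were 5162 of 36247 and 4680 of 37884 neuronal nuclei after AAV against 6349 of 31990 and 7085 of 27987 after vehicle. The part of that mix in the fall was not tested. Also in neurons, ITGA5 (1.65 ± 0.31, adjusted p = 0.0361) and ICAM2 (1.30 ± 0.25, adjusted p = 0.0397), a further LFA-1 ligand, rose. ITGAD, another ITGB2 partner, fell in Müller nuclei to 3 UMIs against 42 (-2.59 ± 0.61, adjusted p = 0.0205). FYB1, an adaptor of integrin activation in leukocytes, rose in astrocyte (3.76 ± 0.76, adjusted p = 0.0105), Müller (1.27 ± 0.34, adjusted p = 0.0320) and neuronal nuclei (1.47 ± 0.21, adjusted p = 0.0175). In astrocyte nuclei FYB1 had 74 UMIs after AAV against 3 after vehicle, and passed the filter on low counts through the AAV retinas. PTPRC moved with it, as given above for Müller nuclei and neurons, and was at 4.74 and 0.602 CPM against 0 and 0.622 CPM in astrocyte nuclei. The part of PTPRC-bearing leukocyte RNA in the FYB1 values, and in the ITGA5 and ICAM2 values of neurons, was not tested.

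Over 36 sums per class and retina with at least 50 nuclei each, the genes whose log2(CPM + 1) was most like each member's were sought as a description. The sums share libraries, and T and B sums come from the AAV retinas of week 4 alone. ITGB2 had the closest companions, NCKAP1L (Pearson r = 0.989), GMFG (0.988) and PARVG (0.985). ITGAL was most like SRGN (0.946), ARHGAP45 (0.945) and RNF138 (0.937), and ITGAL and ITGB2 had an r of 0.91 with each other. ICAM1 was most like JUNB (0.895), CTSZ (0.885) and SLC35D2 (0.884), and VCAM1 was most like HK2 (0.897), PTPRJ (0.897) and WDFY2 (0.885). ITGA4 was most like JARID2 (0.906), YTHDC1 (0.904) and AFF3 (0.904). The ligands had an r of 0.61 with each other. Of ligands and their receptor chains, ICAM1 had an r of 0.72 with ITGAL and 0.65 with ITGB2, and VCAM1 of -0.30 with ITGA4.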

How the data were processed

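Nuclei of flash-frozen retinas were sorted on DAPI and sequenced on 4 lanes of 10x 3′ chips per retina. The authors aligned reads to Sscrofa11.1 (Ensembl annotation) with EGFP added and counted UMIs with Cell Ranger 8.0.0, and deposited unnormalized counts of filtered barcodes without cell types. The genes, gene lists and tests were chosen with earlier results of these data known.

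Following miQC, barcodes whose mitochondrial share was too high for their number of genes were removed (posterior 0.75 in a 2-component mixture). A nucleus took the class with the highest mean marker score (at least 0.3, 3 markers detected, 2 for astrocytes), otherwise it stayed unassigned. No doublets were removed in the reported values. Counts were summed per retina and class and tested with edgeR 4.0.16 (TMM, filterByExpr, quasi-likelihood test, Benjamini-Hochberg adjustment, threshold 0.05). DESeq2 1.42.0 was an alternative. Week 2 has 1 animal per arm, so its 2 eyes were summed in the 6-animal fits and no test was made for that week. Intervals are exact binomial or Poisson at 95% and cover counting error only.

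From the adhesion list, up to 4 genes per class were named, those past the threshold with the largest fold change and no overlap between groups. Likeness left out gate markers and genes under 200 UMIs. Sequences and coordinates come from the RefSeq genome of Sscrofa11.1. Protein sequences were not used here.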

Additional observations from a re-analysis of the deposited data

Results flagged for a closer look

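With the mitochondrial filter left out, ICAM1 in endothelial nuclei stood lower in both AAV eyes than in both vehicle eyes at week 2 and higher in both AAV retinas at week 4, the lower of which was at 97.6 CPM. ITGB2 in the same nuclei showed the same opposite order on 0 to 4 UMIs per retina, with 4.41 CPM in the lower AAV retina of week 4. For both genes the difference between the weeks was not tested.

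Nuclei that no class took, which enter no comparison, also held the members. In them the lower of the week 4 AAV retinas was above every vehicle retina for ICAM1 (7.75 CPM), VCAM1 (5.26 CPM), ITGA4 (83.6 CPM), ITGAL (15.5 CPM) and ITGB2 (5.33 CPM). The share of all genes that stood apart in this way is not given, so that this is not read as a result about the members. The myeloid list summed to 143 and 80.6 CPM, the T list to 73.0 and 68.8 CPM and the B list to 68.0 and 78.7 CPM in these nuclei after AAV at week 4, against at most 40.7, 14.0 and 5.00 CPM in the other retinas. CD163 in them was at 62.3 and 19.8 CPM against 5.56 CPM or below in the other retinas. Their part in these values was not tested.

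Endothelial nuclei that the mitochondrial filter removed held ICAM1 at 134 CPM, VCAM1 at 360 CPM and ITGB2 at 6.68 CPM in the lower of the week 4 AAV retinas, above the week 4 vehicle retinas, the last on 1 UMI. The share of all genes that stood so is not given here either.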

How the results depend on the processing

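Of the tested pairs, 285 values under an alternative kept direction and side of the threshold, 17 passed it newly, 16 no longer passed and 20 changed sign. The cause was not tested in any of these. For the count of called pairs at week 4 (6 of 18), adding the week 2 vehicle animal gave 10 of 19, and leaving out each retina gave 3 (without 7251) to 6. For both weeks together (1), DESeq2 gave 4 and leaving out each animal 0 (without 7248, 7250 or 7251) to 6 (without 7221 or 7222). The shares of all genes called under these alternatives, at week 4 or over both weeks, are not given. A change in such a count is therefore not read as a result about the members. ICAM1 in astrocyte nuclei was at 1.96 under DESeq2 (adjusted p = 0.0883). ICAM1 in myeloid nuclei was at 3.42 under the stricter gate (0.162), 2.84 without the mitochondrial filter (0.0547) and 3.16 without nuclei holding markers of another class (0.0537). It was at 3.29 to 3.51 in the 3 fits without 1 retina that gave a value for it. Leaving out rods gave 2.60 for ICAM1 (0.0953) and 2.11 for VCAM1 (0.0546) in neurons. Leaving out each retina gave 2.73 to 3.54 for ICAM1 in Müller nuclei, 2.25 to 3.54 for ICAM1 and 1.84 to 2.55 for VCAM1 in neurons, and 2.34 to 3.22 for ICAM1 in myeloid nuclei over both weeks (2.77 at most with week 2 complete). The sign of pairs under the threshold turned for ITGA4 in astrocyte nuclei (0.21 without the mitochondrial filter, -0.55 to 0.71 leaving out each retina), ITGA4 in neurons (-0.0112 without rods, -0.0142 to 0.37), ITGAL in astrocyte nuclei (-0.66 to 0.71), ITGB2 in myeloid nuclei (0.079 under the stricter gate) and VCAM1 in Müller nuclei (0.98 under the stricter gate, 0.017 at 1000 or more UMIs per nucleus, 0.0469 without the mitochondrial filter, -1.29 to 0.45). Over both weeks it turned when leaving out animals for ITGA4 in astrocyte (-0.32 to 0.28), myeloid (-0.19 to 1.18, at most 0.148 with week 2 complete) and neuronal nuclei (-0.23 to 0.19, 0.179 without 7221) and ITGAL in astrocyte nuclei (-0.10 to 0.60). VCAM1 in Müller nuclei at week 2 had a ratio of 1.88 under the stricter gate, 3.33 in right and 1.51 in left eyes. Some pairs passed no low-count filter under an alternative, such as ICAM1 in astrocyte nuclei under the stricter gate, and have no value there. Thinning to 1000 UMIs moved 31 of 35 shares of nuclei by more than their counting interval.

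No paired analysis was possible because the replicate numbers only name samples and animals of the groups compared share none. The vehicle retinas held 98 myeloid nuclei at week 4 and no B nuclei, which sets the precision there.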

Other observations

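Pericytes, the contractile cells on the outside of capillaries, entered no comparison because no member passed the filter on low counts in them. VCAM1 in pericyte nuclei was at 32.8 and 46.8 CPM (10 and 12 UMIs) in the week 4 AAV retinas and at 8.57 and 8.65 CPM (1 and 2 UMIs) in the vehicle retinas of that week, and ICAM1 was at 17.3 CPM or below in every retina.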
